A study of Mus musculus with 26 samples.

Results

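The genes described here are 10 mouse chemokines that attract monocytes and lymphocytes: Ccl2, Ccl7, Ccl5, Ccl20, Cxcl9, Cxcl10, Cxcl12, Cxcl14, Cxcl16 and Cx3cl1. They were taken by symbol, ignoring case, from the 55391 gene rows of a count table, and all 10 were found. RNA sequencing covered the murine lung cancer lines EA1, EA2 and EA3, which carry the EML4-ALK fusion, an oncogenic kinase. Cells in culture were exposed to the ALK inhibitor alectinib at 100 nM or to 0.1% DMSO as the control, with 1 library per line, treatment and day. Days 1, 2, 3 and 5 gave 24 libraries, 4 for each line and treatment, and these 4 days served as replicates. Days were taken from the sample titles. The treatment protocol in the labels does not list day 2. All 3 lines share the C57BL/6 background and the fusion. Each is a single line grown without host cells, so that differences between lines are differences between 3 single lines. Nothing in the sources states that the cultures of different days were started separately, and p-values therefore measure the spread between these libraries, which may be technical. For the alectinib effect within a line, this is the spread of the effect over days, which includes any change of the effect with time.

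Chemokines are small secreted proteins that bind G protein-coupled receptors on leukocytes and direct their movement along a gradient. CCL2 and CCL7 bind CCR2 and draw monocytes out of the blood. CCL5 attracts T cells and monocytes, and CCL20 is the ligand of CCR6 on Th17 cells, B cells and dendritic cells. CXCL9 and CXCL10 are made in response to interferons and attract activated T cells through CXCR3. CXCL12 and CXCL14 are homeostatic chemokines, and CXCL12 signals through CXCR4. CXCL16 and CX3CL1, the ligands of CXCR6 and CX3CR1, are made as transmembrane proteins that are shed from the cell surface by metalloproteases.

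The stretch before the start site of 4 members is given because these genes span the range of the data, from a gene with no read to the gene with the highest count. Of the 10 members, 6 had a promoter entry in the RefSeq table of build GRCm38.p6, the patched form of mm10. Each line below holds the 250 bases before the start site, read 5′ to 3′ on the strand of the gene. Capitals mark matches, on either strand, to an interferon-stimulated response element (GAAA, any 2 bases, then GAAA), a gamma-activated site (TTCNNNGAA), an NF-kB site, an AP-1 site (TGANTCA) or the letters TATAAA of a TATA box. Cxcl9 (chr5:92328080-92328329, minus strand) and Cxcl10 (chr5:92348890-92349139, minus strand) are neighbours on chromosome 5.
Cxcl9: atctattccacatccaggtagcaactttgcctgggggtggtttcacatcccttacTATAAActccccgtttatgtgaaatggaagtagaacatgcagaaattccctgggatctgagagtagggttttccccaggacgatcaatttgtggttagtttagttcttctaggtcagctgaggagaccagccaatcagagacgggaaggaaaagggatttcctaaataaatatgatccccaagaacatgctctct
Cxcl10: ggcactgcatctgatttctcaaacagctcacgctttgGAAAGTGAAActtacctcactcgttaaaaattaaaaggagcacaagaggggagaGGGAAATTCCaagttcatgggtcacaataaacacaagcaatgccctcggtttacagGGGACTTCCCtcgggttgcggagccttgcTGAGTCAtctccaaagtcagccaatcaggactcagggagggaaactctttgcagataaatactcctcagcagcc
Ccl20 (chr1:83116516-83116765, plus strand): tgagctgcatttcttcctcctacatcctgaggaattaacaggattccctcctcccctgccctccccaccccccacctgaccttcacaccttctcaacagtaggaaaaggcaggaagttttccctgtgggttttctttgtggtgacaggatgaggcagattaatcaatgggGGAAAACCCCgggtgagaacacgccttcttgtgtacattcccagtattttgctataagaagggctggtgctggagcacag
Cxcl12 (chr6:117168285-117168534, plus strand): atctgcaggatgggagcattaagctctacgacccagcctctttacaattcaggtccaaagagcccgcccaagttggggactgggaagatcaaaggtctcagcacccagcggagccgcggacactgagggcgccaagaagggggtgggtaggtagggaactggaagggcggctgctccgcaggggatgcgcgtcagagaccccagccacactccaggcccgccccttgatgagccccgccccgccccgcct

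The Cxcl10 stretch held 1 interferon-stimulated response element (bases -213 to -204 from the start site), 2 NF-kB sites (-159 to -150 and -103 to -94) and 1 AP-1 site (-74 to -68). Ccl20 held 1 NF-kB site (-80 to -71, on the minus strand), Cxcl9 held the letters TATAAA alone (-195 to -190), and Cxcl12 held no match. The response element occurred in 2.98% of 32851 mouse promoters of this length, the gamma-activated site in 7.02%, the NF-kB site in 3.9%, the AP-1 site in 6.75% and TATAAA in 12.4%. GC content was 44.4% in Cxcl9, 48% in Cxcl10, 51.2% in Ccl20 and 64.4% in Cxcl12. A match describes these letters and not a bound site.

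Library totals of the 24 libraries ran from 5780062 to 11732401 counts. A count of 3 was taken as the detection floor, which equals 0.248 to 0.519 CPM (counts scaled to a common library size) in these libraries and covers counting error only. Of the 240 values of the 10 members, 64 were at 0, 29 at 1 to 3 counts and 147 over the floor. Only Cx3cl1 was over the floor in all 24 libraries (193 to 2056 counts). Ccl2 and Cxcl16 were over it in 23 libraries each, Ccl7 in 17, Cxcl10 in 16, Ccl20 and Cxcl12 in 15 each, Ccl5 in 12 and Cxcl14 in 2. Cxcl9 had 0 counts in every library. The other 2 libraries, labelled EA3 day 7, correlated more with EA2 (median Spearman's rho across genes of 0.939 for DMSO and 0.949 for alectinib) than with EA3 (0.870 and 0.873), and were left out of the tests.

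Markers of the cells were checked beside the members. The keratins Krt8, Krt18 and Krt19 were present in every library, with a lowest count of 91 for Krt8, while Epcam, Cldn4 and Cldn7 had at most 7 counts in EA2 and at most 75 in EA1. All 6 alveolar type 2 markers were at or near 0 in EA1 and EA2, and their sum reached at most 9.52 CPM in EA3. The leukocyte genes Ptprc, Adgre1, Tyrobp and Itgam had at most 4 counts in any library, and Tyrobp had 0 in all. Csf1r had at most 6 counts in EA1 and EA2, but 3 to 20 in EA3 DMSO libraries and 17 to 73 in EA3 alectinib libraries, a difference that did not pass. The sum of the 9 macrophage and leukocyte markers nevertheless reached 227 CPM, since Cd14 and Cd68 were expressed in all 3 lines. The sum of 5 T cell markers was at most 0.166 CPM. Dusp6, a target of the ALK-driven MAP kinase pathway, was lower with alectinib in each line. Its log2 fold change was -2.38 for EA1, -5.03 for EA2 and -3.31 for EA3, where edgeR's quasi-likelihood test gave an adjusted p of 7.95e-05, 1.67e-06 and 1.1e-05 respectively.

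**Figure D1:**
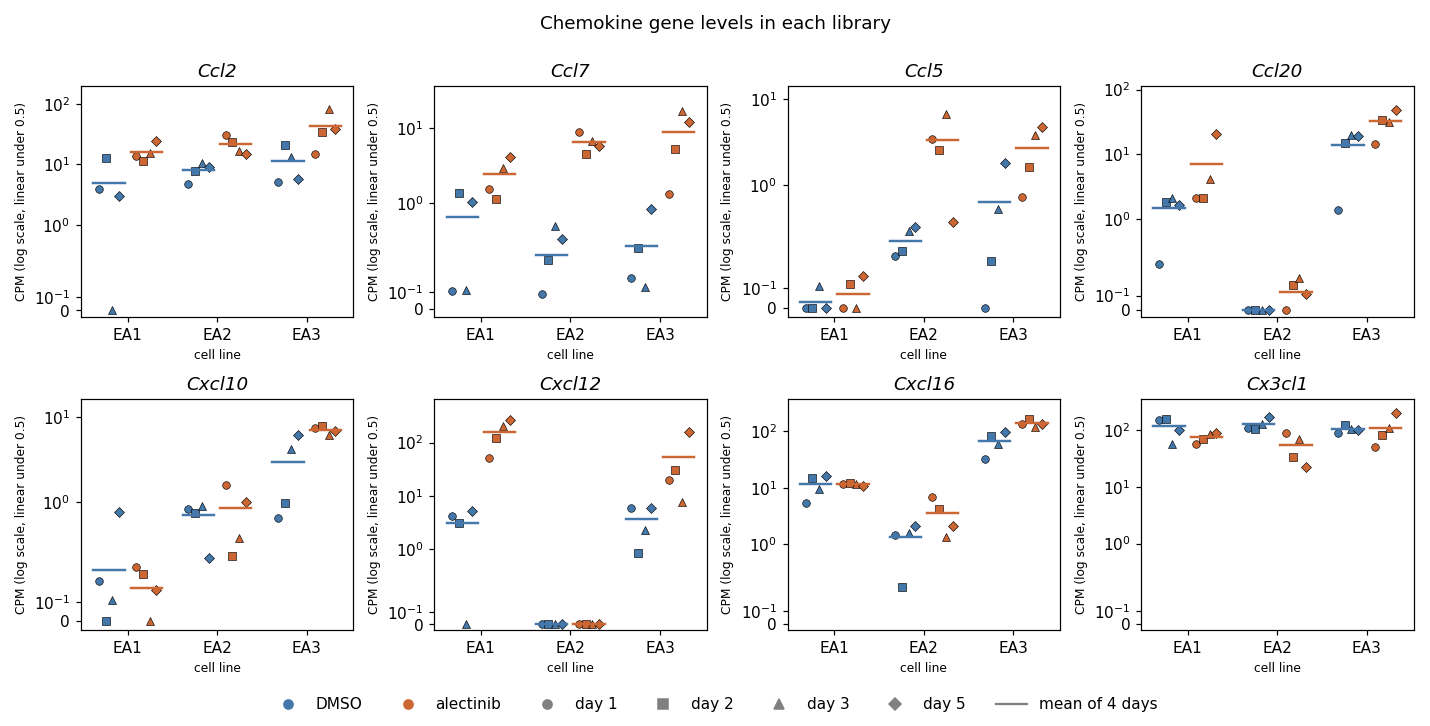
Levels of the 8 members that passed the filter on low counts, in CPM on a log scale that is linear under 0.5, for each line in DMSO (blue) and alectinib (orange). Each point is 1 library, its shape gives the day, and bars are means of 4 days. Cxcl12 lies at 0 in all 8 EA2 libraries, and Cx3cl1 lies over 22 CPM in every library.

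Several of the chemokine genes rose with alectinib. In EA1, Ccl2, Ccl7, Ccl20 and Cxcl12 rose. In EA2, Ccl7 and Ccl5 rose and Cx3cl1 fell. In EA3, Ccl2, Ccl7, Ccl5, Ccl20, Cxcl12 and Cxcl16 rose. Ccl7 rose in all 3 lines, and with no filter on low counts Ccl2 did as well.

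Of the 10 members, 8 passed the filter on low counts and Cxcl9 and Cxcl14 did not. Of these 8, 4 were higher in EA1, where 18% of all 14264 genes tested were higher, and 0 were lower (15.8% of all genes). In EA2, 2 were higher (13% of all genes) and 1 was lower (11.3%). In EA3, 6 were higher (16.4% of all genes) and 0 were lower (15.8%). The counts at an unadjusted p under 0.05, in either direction, were 4, 4 and 7 with edgeR and the same with DESeq2. After adjustment, 33.8%, 24.3% and 32.2% of all genes were called in either direction with edgeR. The unadjusted share of all genes is not given, so these counts are a description. The median log2 fold change was 1.82 over the 7 members that could be compared in EA1, 1.31 over 6 in EA2 and 1.79 over 8 in EA3, against 0.03, 0 and 0.04 over all genes tested. The median is given over members that passed the filter and is a description. Leaving out day 1, 2, 3 or 5 left 1 to 4 members higher in EA1, while EA2 had 1 to 2 and EA3 had 2 to 4. Genes called higher fell over the whole table as well. In EA1 they fell from 2561 of 14264 to 1434 of 14343 without day 3. In EA2 they fell from 1856 to 1158 of 14343 without day 3, and in EA3 from 2343 to 1444 of 14490 without day 2. Without the EA1 day 3 libraries alone, 1 member remained past the threshold in EA1, which was Cxcl12. In that setting 1701 of 14569 genes were higher in EA1.

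Alectinib libraries lay wholly above DMSO libraries for 1 of the 8 members in EA1 (17.3% of all genes), 3 in EA2 (14.3%) and 4 in EA3 (12.2%). In EA2 one of these was Ccl5, whose day 5 libraries held 4 counts in alectinib and 5 in DMSO and change order without TMM scaling. They lay wholly below for 0 in EA1 (13.8%), 1 in EA2 (12.6%) and 0 in EA3 (11.4%).

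**Figure D2:**
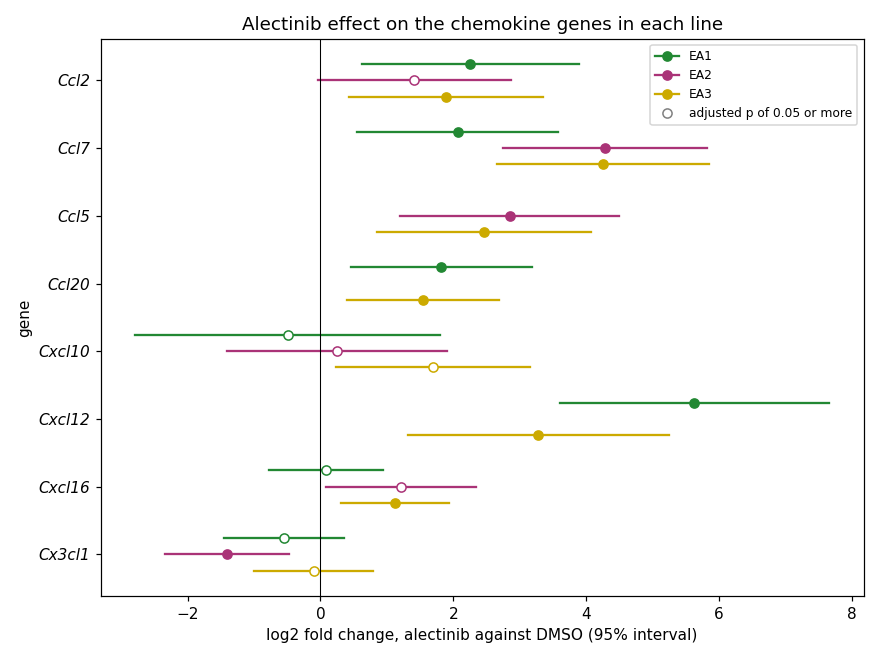
The log2 fold change of alectinib against DMSO with its 95% interval, for each member and line, from edgeR's quasi-likelihood fit with 4 days per group. Filled points have an adjusted p below 0.05, and no point is drawn for Ccl5 in EA1 or for Ccl20 and Cxcl12 in EA2, which were at or under the floor. Cxcl12 in EA1 has the highest value, at 5.63, and Cx3cl1 in EA2 is the single filled point below 0.

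Ccl2, the main ligand of CCR2 on inflammatory monocytes (chromosome 11, 82035571 to 82037453 on the plus strand of mm10), was present in all 3 lines. In EA1, DMSO libraries of days 1, 2, 3 and 5 held 3.86, 12.5, 0 and 3.05 CPM, and alectinib libraries held 13.7, 11.3, 15.2 and 24.8 CPM. In EA2, the DMSO values were 4.68, 7.73, 10.5 and 9.12 CPM and the alectinib values 31.2, 23.7, 16.8 and 14.99 CPM. In EA3, Ccl2 stood at 5.19, 20.98, 13.5 and 5.66 CPM in DMSO and at 15.1, 34.5, 83.0 and 38.0 CPM in alectinib. The groups separated in EA2 and overlapped in EA1 and EA3, where DMSO day 2 was the high control library. In EA1 the log2 fold change was 2.26 ± 0.76 (SE, n = 4 days, adjusted p = 0.0358, edgeR's quasi-likelihood test). For EA2 it was 1.42 ± 0.67 with an adjusted p of 0.15, which passed with no filter (2.59e-06) and with EA2 fitted alone (0.0315), and for EA3 it was 1.89 ± 0.67 with an adjusted p of 0.0478. The EA1 call was lost without day 1, 3 or 5 (adjusted p from 0.101 to 0.153) without the day block (0.056), with EA1 fitted alone (0.0864) and with all 26 libraries (0.059). The EA3 call was lost without the same days (0.0677 to 0.173) and without the EA3 day 5 libraries (0.145). The EA1 DMSO library of day 3 had 0 counts of Ccl2, and without the EA1 libraries of that day the log2 fold change was 1.54 (adjusted p = 0.089).

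Ccl7, a second CCR2 ligand whose gene lies beside Ccl2 (chromosome 11, 82045712 to 82047525, plus strand), was near the floor in DMSO and over it in all 12 alectinib libraries. In EA2, DMSO libraries held 1, 2, 5 and 5 counts (0.0899 to 0.499 CPM) and alectinib libraries 89, 26, 61 and 52 counts (8.83, 4.49, 6.75 and 5.78 CPM). In EA3, the counts were 2, 3, 1 and 5 in DMSO and 14, 47, 181 and 110 in alectinib, or 1.29, 5.15, 16.8 and 11.77 CPM in the latter. In EA1, the counts were 1, 12, 1 and 8 in DMSO and 16, 9, 29 and 49 in alectinib. The groups did not overlap in EA2 or EA3, and they overlapped in EA1, where day 2 was lower with alectinib. Fitted over days, Ccl7 rose by 4.28 ± 0.71 on the log2 scale in EA2 (SE, n = 4 days, adjusted p = 0.00071). The rise was 4.26 ± 0.74 for EA3 (adjusted p = 0.000853) and 2.07 ± 0.70 for EA1 (adjusted p = 0.0361, same edgeR test). With so few control counts the daily ratio was loosely bounded. On day 1 in EA2 it was 98.2-fold with a 95% counting interval of 17.2 to 3921. On day 3 in EA3 it was 127-fold (22.5 to 5034). The calls in EA2 and EA3 held in all 13 alternatives (adjusted p at most 0.00862 and 0.0102), whereas the EA1 call was lost without day 1, 3 or 5 (0.104 to 0.161), without the day block (0.0527), with EA1 fitted alone (0.0707) and with all 26 libraries (0.0518). Its log2 fold change ran from 1.504 without day 3 to 2.97 without day 2.

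Ccl5, which attracts T cells and monocytes (chromosome 11, 83525778 to 83530518, minus strand), was absent or at the floor in EA1. None of the 8 EA1 libraries held more than 2 counts, so no comparison was made there. EA2 held 3, 2, 4 and 5 counts in DMSO and 35, 15, 61 and 4 counts in alectinib. EA3 held 0, 2, 4 and 11 counts in DMSO and 8, 15, 41 and 44 counts in alectinib. In EA2, alectinib was 8.89-fold to 16.9-fold higher on days 1 to 3, and on day 5 the levels were 0.419 CPM in DMSO and 0.444 CPM in alectinib. Ccl5 gave a log2 fold change of 2.85 ± 0.76 in EA2 (SE, n = 4 days, adjusted p = 0.0159) and 2.46 ± 0.74 in EA3 (adjusted p = 0.0231, same edgeR test). Both calls were lost without day 1, 2 or 3, with adjusted p from 0.0589 to 0.143 in EA2 and from 0.0655 to 0.0919 in EA3. Without the day block, the EA3 call was lost as well (adjusted p = 0.0574).

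Ccl20, the CCR6 ligand (chromosome 1, 83116766 to 83119167, plus strand), separated EA2 from the other two lines. All 4 EA2 DMSO libraries had 0 counts and the alectinib libraries 0, 1, 2 and 1 counts, at or under the floor. EA3 held 1.37, 14.95, 20.02 and 18.97 CPM in DMSO and 14.5, 33.8, 31.5 and 49.0 CPM in alectinib. EA1 held 0.321, 1.82, 2.13 and 1.65 CPM in DMSO and 2.11, 2.11, 4.15 and 20.3 CPM in alectinib. Alectinib was the higher library on 4 of 4 days in both lines, though day 2 in EA1 differed by only 1.16-fold (counting interval 0.549 to 2.45). Ccl20 gave a log2 fold change of 1.82 ± 0.62 in EA1 (SE, n = 4 days, adjusted p = 0.0426) and 1.54 ± 0.52 in EA3 (adjusted p = 0.0419, same edgeR test). The EA1 call was lost without day 1, 3 or 5 (adjusted p from 0.0608 to 0.228), without the EA1 day 3 libraries (0.0641), with EA1 fitted alone (0.0578) and with all 26 libraries (0.0752). Without day 5 its log2 fold change was 1.105. The EA3 call was lost without any 1 of the 4 days (0.0549 to 0.124), without the EA3 day 5 libraries alone (0.0952) and without the day block (0.203).

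Cxcl9 and Cxcl10, the interferon-induced CXCR3 ligands, differed in whether they could be detected at all. Cxcl9 (chromosome 5, 92321347 to 92328079, minus strand) had 0 counts in all 26 libraries, and a count of 0 allows up to 0.248 to 0.519 CPM in the 24 libraries of days 1 to 5. Cxcl10 (chromosome 5, 92346638 to 92348889, minus strand) shares 5.91% of its exon bases with Art3 on the other strand, and the counting of strand is not given in the sources used here. In EA3 it stood at 0.638, 0.965, 4.24 and 6.16 CPM in DMSO and at 7.48, 7.89, 6.22 and 6.85 CPM in alectinib. The 4 alectinib values lay close together from day 1 on, while DMSO values of days 3 and 5 were several times those of days 1 and 2. The ratio was accordingly 11.7-fold on day 1 (counting interval 5.44 to 30.1), 8.18-fold on day 2 (3.94 to 19.7), 1.47-fold on day 3 (0.949 to 2.31) and 1.11-fold on day 5 (0.731 to 1.72). The groups did not overlap, and the log2 fold change over the 4 days was 1.69 ± 0.68 (SE, adjusted p = 0.0723, same edgeR test). That value passed the threshold without day 5 (2.32, adjusted p = 0.0438), with DESeq2 (1.78, adjusted p = 0.0345), with library size alone (1.84, adjusted p = 0.0472) and with no filter (1.68, adjusted p = 0.00546).

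In EA2, Cxcl10 held 9, 5, 9 and 4 counts in DMSO and 16, 2, 4 and 9 counts in alectinib. Days 1 and 5 were higher with alectinib and days 2 and 3 lower (log2 fold change 0.25, 95% interval -1.40 to 1.91, adjusted p = 0.849). In EA1 the counts were 2, 0, 1 and 6 in DMSO and 3, 2, 0 and 2 in alectinib (log2 fold change -0.50, interval -2.79 to 1.79, adjusted p = 0.745). A difference was not detectable at this depth in either line.

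Cxcl12, the CXCR4 ligand that stromal cells usually supply (chromosome 6, 117168535 to 117181367, plus strand), had the largest log2 fold change of the members in EA1. In EA1, DMSO libraries held 39, 27, 0 and 40 counts (4.18, 3.08, 0 and 5.09 CPM) and alectinib libraries held 541, 1005, 2014 and 3187 counts (52.0, 125, 204 and 263 CPM). In EA3, the levels were 5.92, 0.844, 2.25 and 5.82 CPM in DMSO and 20.04, 30.4, 7.52 and 158 CPM in alectinib. In EA2, all 8 libraries had 0 counts. DMSO and alectinib libraries did not overlap in EA1 or EA3, and among EA3 alectinib libraries day 5 was far above the others. The log2 fold change was 5.63 ± 0.90 in EA1 (SE, n = 4 days, adjusted p = 0.00138) and 3.28 ± 0.88 in EA3 (adjusted p = 0.0179, same edgeR test). On day 3 in EA1, where DMSO had 0 counts, Cxcl12 was at least 605-fold higher with alectinib, against the floor of 3 counts in that library. The EA1 call held in all 13 alternatives (adjusted p at most 0.0103). The EA3 call was lost without day 2 or day 5 (0.0871 and 0.104), and the log2 fold change without the EA3 day 5 libraries alone was 2.67 (adjusted p = 0.0729).

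Cxcl12 and the other members that rose did so together with genes that mark fibroblasts. The EA1 sum of 10 fibroblast markers lay between 9.54 and 45.2 CPM in DMSO and between 125 and 473 CPM in alectinib. The EA2 sum lay between 57.0 and 71.2 CPM in DMSO and reached 119 to 241 CPM, and the EA3 sum lay between 10.3 and 20.5 CPM in DMSO and reached 84.9 to 283 CPM. Of 6 markers tested, 5 rose in EA1, 3 in EA2 and 5 in EA3, beside 18%, 13% and 16.4% of all genes. Dcn, which encodes the matrix proteoglycan decorin, had means of 0.0603 CPM in DMSO and 4.63 CPM in alectinib in EA1, and of 0.0717 and 13.8 CPM in EA3. Col3a1, a fibrillar collagen, had 1.38 and 141 CPM in EA1. EA2 held 44.9 CPM of Dcn in DMSO and 91.0 CPM in alectinib (means of 4 days), yet 0 counts of Cxcl12. The fibroblast genes Thy1 and Fap had at most 2 counts in any library, and Lum and Postn were at 0 in all EA1 and EA2 DMSO libraries. With alectinib, Lum reached 41 counts in EA1 and 1 in EA3. Postn reached 13 counts in EA1 and 117 in EA3, and both genes stayed at 0 in EA2. Of the 8 epithelial markers, 1 rose and 1 fell in EA1, 2 rose and 2 fell in EA2, and 1 rose and 1 fell in EA3. In EA1 and EA3 these counts were near the shares of all genes, of which 18% and 16.4% rose and 15.8% fell in both. In EA2, 13% of all genes rose and 11.3% fell, and 2 of 8 lay above both shares. Krt18 fell in all 3 lines (log2 fold change -1.55 for EA1, -1.79 for EA2 and -1.16 for EA3, adjusted p = 0.00322, 0.00146 and 0.0151), and Krt8 fell in EA2 (-2.61, adjusted p = 0.000346). The markers that rose were Epcam in EA1 (2.41, adjusted p = 0.00517), Cdh1 and Krt7 in EA2 (1.55 and 3.30, adjusted p = 0.000109 and 0.000631) and Cdh1 in EA3 (0.61, adjusted p = 0.0298). The sum of 8 epithelial markers in EA2 lay between 1818 and 2684 CPM in DMSO and between 561 and 1176 CPM in alectinib. The part of these markers in the rise of Cxcl12 and the other members was not tested. In these bulk cultures, a change in the share of cells that make a transcript and a change in RNA per cell cannot be told apart.

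**Figure D3:**
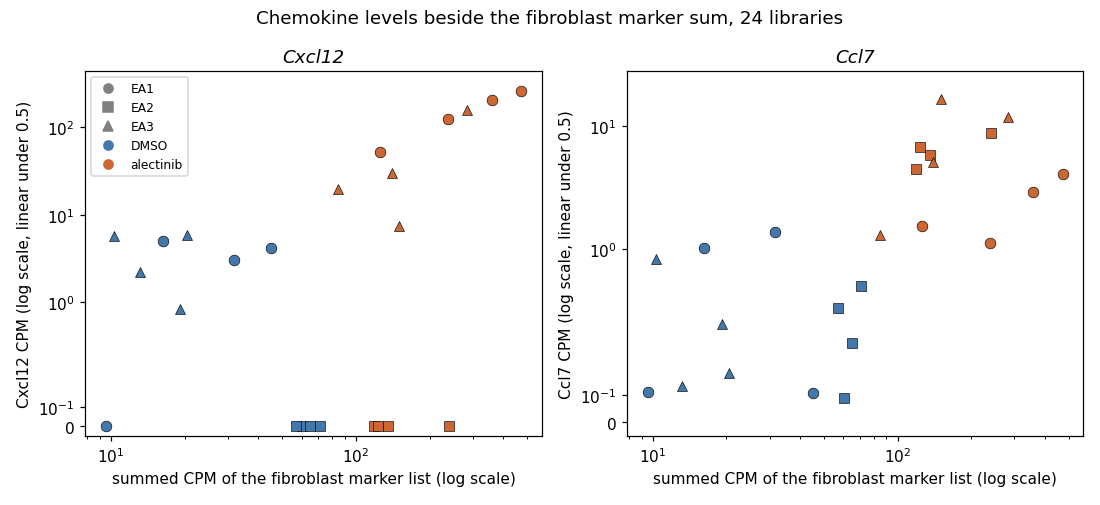
CPM of Cxcl12 (left) and Ccl7 (right) against the summed CPM of 10 fibroblast markers, on log scales, with the vertical axis linear under 0.5. Each of the 24 points is 1 library, its shape gives the line and its color the treatment. The 8 EA2 libraries lie at 0 for Cxcl12 while their marker sum runs from 57.0 to 241 CPM.

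Cxcl14, an epithelial chemokine (chromosome 13, 56288643 to 56296551, minus strand), had 0 counts in all 16 EA1 and EA2 libraries. In EA3 it held 5, 3, 0 and 5 counts in DMSO and 2, 1, 2 and 2 counts in alectinib. Of the 24 libraries, 22 were at or under the floor, so that no test was made.

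Cxcl16, the transmembrane ligand of CXCR6 (chromosome 11, 70453983 to 70459984, minus strand), was highest in EA3. Of its exon bases, 18.3% are shared with Zmynd15 on the other strand. In EA3, it stood at 32.4, 84.4, 60.2 and 96.3 CPM in DMSO and at 136, 165, 122 and 133 CPM in alectinib, with no overlap. In EA1, DMSO libraries held 5.46, 15.2, 9.54 and 16.4 CPM and alectinib libraries 11.5, 12.2, 11.5 and 10.8 CPM. In EA2, DMSO libraries held 1.44, 0.292, 1.597 and 2.09 CPM and alectinib libraries 6.84, 4.15, 1.33 and 2.11 CPM. The alectinib values of EA1 lay inside the DMSO range, and those of EA2 were above the DMSO range on days 1 and 2, marginally above it on day 5 and within it on day 3. Cxcl16 rose in EA3 by 1.12 ± 0.38 on the log2 scale (SE, n = 4 days, adjusted p = 0.0354, same edgeR test). The values were 1.21 ± 0.52 for EA2 (adjusted p = 0.112) and 0.08 ± 0.40 for EA1 (adjusted p = 0.896). The EA3 call was lost without day 1, 2 or 3 (0.0777 to 0.109). In EA2, Cxcl16 passed with DESeq2 (1.24, adjusted p = 0.035) and with no filter (1.22, adjusted p = 0.000844).

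Cx3cl1, or fractalkine, the ligand of CX3CR1 on patrolling monocytes and cytotoxic lymphocytes (chromosome 8, 94772009 to 94782427, plus strand), was the one member that fell. In EA2, it went from 107, 105, 128 and 172 CPM in DMSO to 89.8, 33.4, 69.2 and 22.6 CPM in alectinib. In EA1, the values were 152, 157, 57.7 and 102 CPM in DMSO and 57.9, 70.3, 86.1 and 90.1 CPM in alectinib. In EA3, they were 90.2, 122, 105 and 101 CPM in DMSO and 50.9, 81.1, 109 and 196 CPM in alectinib. The EA2 groups did not overlap, whereas in EA1 and EA3 alectinib was lower on days 1 and 2 and not lower on day 3. Its log2 fold change was -1.40 ± 0.43 for EA2 (SE, n = 4 days, adjusted p = 0.0311, same edgeR test). For EA1 it was -0.54 ± 0.42 (adjusted p = 0.332, which passed with no filter at 0.0395), and for EA3 it was -0.10 ± 0.41 (adjusted p = 0.871). In EA3 the mean over days hid opposite daily ratios, 0.564-fold on day 1 (counting interval 0.507 to 0.627) and 1.94-fold on day 5 (1.77 to 2.13), and the sign of its log2 fold change turned with library size alone (0.04). The EA2 call was lost without day 2, 3 or 5 (0.0689 to 0.121) and with EA2 fitted alone (0.0878), and without day 5 the log2 fold change was -0.91.

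**Figure D4:**
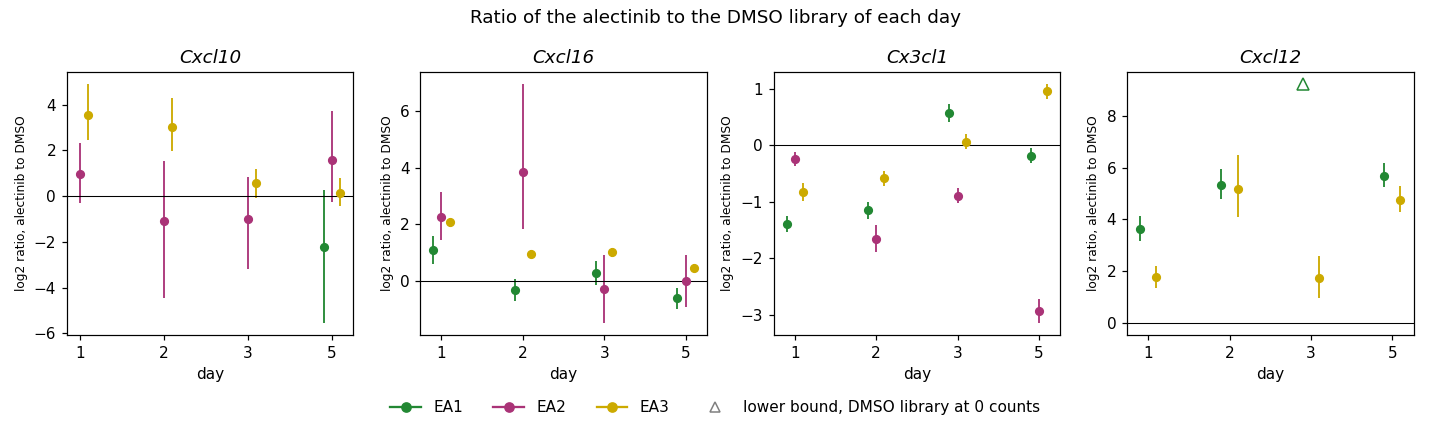
The log2 ratio of the alectinib to the DMSO library of the same day for Cxcl10, Cxcl16, Cx3cl1 and Cxcl12, with 95% intervals that cover counting error only. Pairs in which both libraries held 3 counts or fewer are not drawn, and an open triangle marks a lower bound where the DMSO library had 0 counts. In EA3, the ratio of Cxcl10 runs from 3.55 on day 1 to 0.15 on day 5, and that of Cx3cl1 from -0.83 to 0.96.

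Whether alectinib acted differently in the 3 lines was tested for each gene with 2 degrees of freedom. Of the 8 members, 0 passed (7.05% of all genes did), with adjusted p from 0.261 for Ccl7 to 0.86 for Ccl5. At an unadjusted p under 0.05 there were 0 with edgeR, and DESeq2's likelihood ratio test likewise gave 0 past the threshold. With no filter on low counts, 4 of 9 members passed: Ccl7, Cxcl12, Cxcl16 and Cx3cl1. The share of all genes in that setting is not given, and Cxcl12 had 0 counts in all EA2 libraries. Only 5 of the 8 could be compared in all 3 lines, since Ccl5 in EA1 and Ccl20 and Cxcl12 in EA2 were at or under the floor. A member that passed in one line and not in another was therefore not shown to differ between the lines.

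The levels themselves were compared between lines as well. In DMSO, 3 of 8 members differed between EA2 and EA1 (40.8% of all genes), 4 between EA3 and EA1 (35.6%) and 4 between EA3 and EA2 (38.2%). In alectinib, the numbers were 6 (43.8%), 6 (34.5%) and 4 (40.8%). The counts in DMSO and that between EA3 and EA2 in alectinib were near the share of all genes, so they are not a result about the members as a group. These comparisons took the day as a term across lines.

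Cxcl16 gave the clearest order. Its mean level in DMSO was 68.3 ± 28.3 CPM in EA3, 11.6 ± 5.09 in EA1 and 1.36 ± 0.762 in EA2 (SD, n = 4 days), and each step passed (log2 difference 2.56 between EA3 and EA1, adjusted p = 6.47e-05, and -2.96 between EA2 and EA1, adjusted p = 5.47e-05, edgeR's quasi-likelihood test). In alectinib the order was the same, at 139 ± 18.5, 11.5 ± 0.578 and 3.61 ± 2.46 CPM, though the step between EA2 and EA1 was lost without day 3. Ccl20 followed that order too, at 13.8 ± 8.59 CPM in EA3 and 1.48 ± 0.799 CPM in EA1 in DMSO (log2 difference 3.05, adjusted p = 0.000275), against 0 in EA2. Against the floor, Ccl20 was at least 44-fold higher in EA3 DMSO libraries than in those of EA2 and at least 4.72-fold higher in those of EA1.

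Cxcl12 showed no difference past the threshold between EA3 and EA1 in DMSO (log2 difference 0.35, 95% interval -1.51 to 2.21, adjusted p = 0.801), and both were at least 9.81-fold above the floor in EA2. In alectinib, EA3 lay below EA1 (log2 difference -2.24, adjusted p = 0.0314), and EA1 was at least 435-fold above the floor in EA2. The difference between EA3 and EA1 in alectinib was lost with DESeq2, without the day block, without day 2 or 3 and without the EA1 day 3 libraries. The difference between EA2 and EA1 in DMSO was lost without day 5.

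Cxcl10 was highest in EA3. In DMSO its mean was 3.00 ± 2.66 CPM in EA3, 0.693 ± 0.249 CPM in EA2 and 0.272 ± 0.339 CPM in EA1 (SD, n = 4 days). EA3 differed from EA1 (log2 difference 3.42, adjusted p = 0.0023) and from EA2 (1.93, adjusted p = 0.0401), and the interval between EA2 and EA1 included 0 (1.49, interval -0.28 to 3.26, adjusted p = 0.165). In alectinib, all 3 pairs passed, with EA2 above EA1 by 2.21 (log2 difference, adjusted p = 0.0447) and EA3 above EA2 by 3.13 (adjusted p = 0.00131). The call between EA2 and EA1 in alectinib was lost with all 26 libraries, without day 1, 3 or 5 and without the EA1 day 3 libraries. That between EA3 and EA2 in DMSO was lost with library size alone, without day 3 or 5 and without the EA3 day 5 libraries. EA1 held at most 3 counts of Cxcl10 in alectinib, so the size of its difference from the other lines depends on the prior count.

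Ccl5 was higher in EA3 than in EA1 in DMSO (log2 difference 3.69, adjusted p = 0.0305). The difference between EA2 and EA1 in DMSO was 3.14 (adjusted p = 0.0633), which passed with DESeq2, with library size alone, with no filter and without the EA3 day 5 libraries. In alectinib it was higher than in EA1 in both EA2 (5.55, adjusted p = 0.000182) and EA3 (4.90, adjusted p = 0.000738). The DMSO call for EA3 was lost without day 2, 3 or 5 and without the EA3 day 5 libraries. The sizes are loose because EA1 held at most 2 counts of Ccl5 in any library. Ccl7 passed for no pair of lines in DMSO (adjusted p from 0.326 to 0.887) and was higher in EA2 and EA3 than in EA1 in alectinib (1.69 and 1.72, adjusted p = 0.0322 and 0.0359). The EA2 call was lost without the day block, without day 1, 2 or 5 and without the EA1 day 3 libraries, and the EA3 call without day 2, 3 or 5, the EA1 day 3 libraries or the EA3 day 5 libraries. Its levels in alectinib in EA2 and EA3 were 6.46 ± 1.83 and 8.75 ± 6.89 CPM, with a log2 difference of 0.03 and an interval of -1.63 to 1.70.

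For Ccl2 and Cx3cl1, no difference between lines passed the threshold in either treatment with the filter and day term used here. Ccl2 had means of 4.86 to 11.3 CPM in DMSO (adjusted p from 0.189 to 0.67) and 16.3 to 42.6 CPM in alectinib (0.139 to 0.622). With no filter on low counts, it passed in DMSO for EA2 and EA3 against EA1, and in alectinib for EA3 against both other lines. Cx3cl1 had means of 104 to 128 CPM in DMSO, with log2 differences between -0.27 and 0.10 and intervals that reached no further than -1.12 and 0.95. For EA3 against EA2 in alectinib its log2 difference was 0.96 (adjusted p = 0.076), which passed with DESeq2, with no filter, without the day block and without day 1.

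Divided by exon length, Cx3cl1 had the highest mean level of the 10 members in DMSO in every line, at 29.8 CPM per kilobase in EA1, 32.6 in EA2 and 26.6 in EA3. In EA3, Cxcl16 came next at 22.6 CPM per kilobase, then Ccl2 at 9.96 and Ccl20 at 9.73. In EA1, Ccl2 (4.27) and Cxcl16 (3.85) followed, and in EA2 Ccl2 (7.03). In alectinib, Cxcl12 reached 19.7 CPM per kilobase in EA1, beside 19.4 for Cx3cl1, and Cxcl16 led in EA3 at 46 CPM per kilobase, ahead of Ccl2 at 37.5. In EA2, Ccl2 led at 19.1 CPM per kilobase. These exon lengths come from GENCODE M21 and neighbours in the order were not tested.

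The level over days within each line and treatment was fitted per doubling of days. In EA3 DMSO cultures, 1 of 8 members passed, Ccl5, which rose by 2.52 ± 0.76 on the log2 scale per doubling (SE, adjusted p = 0.041, edgeR's quasi-likelihood test), where 5.51% of all genes rose. Cxcl10 (1.53 ± 0.48, adjusted p = 0.0502) and Ccl20 (1.503 ± 0.502, adjusted p = 0.0659) in the same libraries did not pass. The Ccl5 slope rests on 0, 2, 4 and 11 counts, and 0 members passed without day 1, 2 or 5 or with the day as a linear number, while 2 passed without day 3. None passed in the other 5 groups of line and treatment, where few genes of any kind did: 3.76% of all genes in EA1 DMSO, 0.477% in EA3 alectinib, 0.0631% in EA2 alectinib and 0 in EA1 alectinib and EA2 DMSO. The count of members there is therefore not a result about them. Their lowest adjusted p was 0.114, for Cx3cl1 in EA3 with alectinib (slope 0.83). At an unadjusted p under 0.05 there were 4 in EA3 DMSO, 3 in EA3 alectinib, 2 in EA2 alectinib, 1 in EA1 alectinib and 0 in EA1 and EA2 DMSO. In EA3 DMSO, 11.3% of all genes passed in either direction after adjustment. The unadjusted share of all genes is not given, so these counts are a description.

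Of the 13 receptors and scavengers of these chemokines, Ackr3, which binds and clears CXCL12, was the single one tested, and the other 12 had at most 6 counts in any library. In EA2 its mean was 155 CPM in DMSO and 64.2 CPM in alectinib (log2 fold change -1.36, adjusted p = 0.0051). In EA3 the means were 97.4 and 31.95 CPM (-1.63, adjusted p = 0.00141), and in EA1 they were 73.7 and 37.6 CPM (-0.77, adjusted p = 0.0684). Of 3 processing enzymes tested, 2 rose in EA1, 0 in EA2 and 1 in EA3, beside 18%, 13% and 16.4% of all genes. Adam10, a protease that sheds CX3CL1 and CXCL16, rose from 221 to 645 CPM in EA1 (log2 fold change 1.53, adjusted p = 3.21e-05). Mmp2, which can cleave CCL7 and CXCL12, rose in EA1 (2.86, adjusted p = 0.000175) and EA3 (2.60, adjusted p = 0.00296).

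Of 22 other chemokines, 9 were tested, of which 4 rose and 1 fell in EA1, 2 rose in EA2 and 2 rose in EA3, beside 18%, 13% and 16.4% of all genes that rose. The 1 that fell in EA1 was near the 15.8% of all genes that fell there. The largest rises were those of Ccl17, a CCR4 ligand, in EA3 (0.0416 to 3.50 CPM) and Pf4, or Cxcl4, in EA1 (0.0598 to 1.81 CPM). Ccl25, the CCR9 ligand, fell in EA1 by 1.14 on the log2 scale (adjusted p = 0.00212). Ccl28, an epithelial chemokine, rose there by 2.21 (adjusted p = 0.00339). Ccl9, a CCR1 ligand picked out after its values were seen, rose in all 3 lines. Its means in DMSO and alectinib were 1.08 and 17.6 CPM in EA1, 0.822 and 19.9 CPM in EA2, and 9.80 and 51.9 CPM in EA3.

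Of 14 interferon pathway genes tested, 9 rose in EA1 and 9 in EA3, with 0 lower in both, and 2 rose and 1 fell in EA2. Over all genes, 18% rose in EA1, 16.4% in EA3 and 13% in EA2, so that the EA2 count was near the share of all genes. Irf7, a factor that amplifies interferon responses, had a log2 fold change of 1.78 in EA3 (adjusted p = 0.0155). Socs1, an inhibitor of JAK-STAT signaling, fell in EA2 by 2.57 (adjusted p = 0.000507). Ifnar1, a receptor subunit, rose in EA1 by 0.41 (adjusted p = 0.0457). Of 20 NF-kB pathway genes tested, 2 rose and 1 fell in EA1, 6 rose and 1 fell in EA2, and 5 rose and 2 fell in EA3. The EA1 rises and the falls in each line were below the shares of all genes given for these contrasts (18% higher in EA1, and 15.8%, 11.3% and 15.8% lower in EA1, EA2 and EA3). The largest values were those of Nfkbie (2.13, adjusted p = 6.68e-05) and Tlr3 (1.85, adjusted p = 0.00215) in EA3, and the 2 genes with the lowest were Bcl3 (-0.83 in EA2, adjusted p = 0.0103) and Chuk (-0.70 in EA1, adjusted p = 0.00865).

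Among the members, Ccl20 and Cxcl16 tracked each other over the 24 libraries (Pearson's r of log2 CPM of 0.907), and within line and treatment the correlation was 0.273. Ccl2 and Ccl7 gave 0.713 and 0.578. Ccl2 and Cx3cl1 gave 0.047 overall and 0.609 within line and treatment. The genes most like each member, of 12160 compared over 24 libraries, were Dync2li1 (r = 0.906) and Stat2 (0.905) for Ccl2, Klhdc8b (0.911) for Ccl7, Lpcat2 (0.942) for Ccl20, Xdh (0.955) and Fam3c (0.952) for Cxcl12, Krt7 (0.948) for Cxcl16, and Aqp11 (0.825) for Cx3cl1. The libraries share line, treatment and day, and these values describe that shared pattern with no test.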

How the data were processed

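Poly(A) RNA of 26 cultures was sequenced as stranded paired reads, and the authors trimmed adapters with bbduk, aligned reads to mm10 with STAR and deposited raw counts per gene symbol from STAR's own counter. The annotation release and the strand column are not given in the sources used here. The 24 rows whose symbol had become a date, with 0.129% to 0.201% of the counts, were left out. CPM were computed from the deposited counts with TMM scaling. Genes that passed filterByExpr (14264) were fitted on 24 libraries with edgeR 4.0.16 (R 4.3.3, limma 3.58.1), by the quasi-likelihood test with 12 blocks of line and day and an alectinib coefficient per line. P-values were adjusted by Benjamini-Hochberg over all genes tested, at a threshold of 0.05. Lines were compared within a treatment with day as a term. The block is the day of treatment in the labels, which do not give a shared harvest. Deviations of same-day libraries correlated between -0.3 and 0.549, over 0.1 in 6 of 12 pairs, so the data do not show that days pair the libraries.

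The members and gene lists were chosen with earlier results of these data known. Of each chemokine, receptor, enzyme and pathway list, at most 4 genes were named by rule, the 2 with the largest and the 2 with the smallest log2 fold change among those past the threshold in any line. Ccl9 and single cell type markers were named outside that rule, after their values were seen. Some items that this rule or the sources give are not reported here. Counting intervals of daily ratios are exact binomial (95%). The fit was tested on simulated data. Alternatives were DESeq2 1.42.0, its size factors, library size alone, no filter, a minimum of 10 counts, no day block, each line alone, all 26 libraries and leaving out days. Leaving out the EA1 day 3 or the EA3 day 5 libraries alone was chosen after seeing the data.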

Additional observations from a re-analysis of the deposited data

Results flagged for a closer look

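In DMSO, the day 1 library was low for Ccl20 in EA1 (3 counts) and in EA3 (15 counts), with a gap to the nearest library of 0.862 and 0.89 of the range on the log2 scale. The EA1 DMSO library of day 3 was low for Cxcl12 (0 counts, gap 0.89). Each gap was above the 95% limit of Dixon's test for 4 libraries, as in 3 of 42 groups, where chance gives about 1 in 20.

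The EA3 day 7 pair entered no test of the main fit. Only rises were flagged, with a counting interval above 0 or a DMSO library at 0 counts. Its log2 ratio of alectinib to DMSO was 5.63 for Ccl2 (8 and 589 counts in DMSO and alectinib), 7.42 for Ccl7 (1 and 255 counts), at least 2.79 for Ccl20 (0 and 31 counts) and 2.69 for Cxcl16 (5 and 48 counts). Cx3cl1 was lower with alectinib in this pair (-0.365, counting interval -0.540 to -0.190). The intervals of Cxcl10 (-0.673) and Ccl5 (0.859) included 0. These libraries correlated more with EA2 than with EA3 libraries, and Cxcl12 had 0 counts in both.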

How the results depend on the processing

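Of 273 values of 21 log2 fold changes under the alternatives, 206 kept their direction and their side of the threshold, 47 lost the threshold, 10 passed it and 10 changed sign. The number of members higher in EA1 (4) was 2 with no replicate block, 1 with each line fitted alone and 1 with all 26 libraries, and 1 to 4 when a day was left out. In EA2 it was 4 with no filter and 1 to 2 when a day was left out, against 2, and the number lower (1) was 0 with each line fitted alone and 0 to 1 when a day was left out. In EA3 the number higher (6) was 2 to 6 when a day or 1 line's day was left out. With no filter, of 9 members tested, 1 was lower in EA1, 4 differed in effect between lines and 5 differed between EA2 and EA1 in DMSO. The slope count in EA3 DMSO (1) was 0 with a linear day and 0 to 2 when a day was left out. With a day left out of all lines, fewer genes of the whole table were called higher in each line as well. The cause of these changes was not tested.

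Signs turned for Cxcl10 in EA1 without day 5 (0.59) and in EA2 without day 1 (-0.08) or day 5 (-0.17), and for Cxcl16 in EA1 with no block (-0.016) and without day 1 (-0.19) or day 3 (-0.0040). They turned for Cx3cl1 in EA3 with library size alone (0.043), no block (0.066), and without day 1 (0.18) or day 2 (0.049). Over all left-out days these log2 fold changes ran from -1.21 to 0.59 (Cxcl10, EA1), -0.17 to 0.65 (Cxcl10, EA2), -0.19 to 0.33 (Cxcl16, EA1) and -0.42 to 0.18 (Cx3cl1, EA3). None of these 10 passed the threshold. Library size alone moved the median of all genes to 0.155 in EA1 and 0.182 in EA3, and the share of called genes that were higher to 64.6% and 64.7%, against 53.2% and 51%. A minimum of 10 counts in every library left 1 member to test, Cx3cl1, whose fall in EA2 kept its call (adjusted p = 0.0342), so the counts of members under that setting are not compared. Cxcl9, Cxcl14, Ccl5 in EA1, Ccl20 in EA2 and Cxcl10 in EA1 were at 0 or a few counts, where depth sets the smallest level that could be seen.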
